A study of Canis lupus familiaris with 12 samples.

Results

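The miRNAs described here are those first named in the dog and numbered from miR-8788 to miR-8910. All rows of the deposited miRNA table whose number lies in that range were taken, whatever letter or arm followed it, which gave 137 of 453 rows. Of the 123 numbers in the range, 120 had a row, from miR-8789 to miR-8908, and 24 rows in 7 families differed only by a letter or arm. The small RNAs came from CHMm, a canine mammary gland tumor line grown from a metastatic lesion, and from CHMmTAM, the tamoxifen (TAM)-resistant line derived from it. CHMmTAM was selected over 10 months with rising doses until it grew in 10 μM TAM, held at that dose for 1 month and grown without drug for 1 week. 3 libraries of each line were counted. The growth medium stated for the cells had no phenol red and its serum was stripped of steroids. The methods of the study also list 4-hydroxytamoxifen, an active form of TAM, in this medium, without a dose or the lines that received it, whereas the sample labels do not list it. Whether the CHMm cells were exposed to it is not stated. Only 1 resistant line was sequenced, so that resistance and any other difference acquired during the months of culture cannot be told apart. Nothing states that the 3 libraries of a line came from separate cultures, and p-values then cover only differences between these libraries. The edgeR fit used below also draws the spread of each miRNA partly from all tested rows. Its p-values and standard errors thus do not measure the spread of a single miRNA alone.

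miRNAs are short RNAs that guide Argonaute proteins to partly complementary sites in messenger RNAs, which are then repressed. The nuclear RNase DROSHA cuts most of them as hairpins from longer transcripts, many of which are introns of protein-coding genes, and DICER then removes the loop. miRNAs receive numbers in the order in which they are registered, so that a high number marks a late discovery and says nothing of function. Families with an ancient origin, such as let-7 or miR-200, have low numbers and are often abundant, whereas miRNAs known from a single species are often rare. The targets of the miRNAs described here are not established, and no role is given to them below.

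Library totals lay between 7512659 and 11450062 counts for CHMm and between 8137736 and 12482211 for CHMmTAM, and miR-21 alone took 50.2% to 54.5% of them. At these totals, 3 counts correspond to 0.240 to 0.399 CPM (counts scaled to a common library size of 1e6), a limit that covers counting error only. All 7 epithelial miRNAs checked (the miR-200 family with miR-203 and miR-205) were present, with a summed level of 25124 to 26471 CPM in CHMm and 22450 to 23736 CPM in CHMmTAM. The summed level of 6 blood-cell miRNAs was 4.92 to 6.29 CPM in CHMm and 11.9 to 15.0 CPM in CHMmTAM. That of 8 muscle miRNAs, of which miR-208a had no count, was 279 to 318 CPM and 431 to 444 CPM, and that of 4 stromal miRNAs 39.7 to 47.6 CPM and 23.8 to 28.8 CPM. A sum follows its most abundant miRNAs, and single ones can differ from it. The epithelial miR-429, for example, had 2187 CPM in CHMm and 2811 CPM in CHMmTAM. The part of these miRNAs in the results below was not tested. The libraries hold RNA of whole cultures, so that a change in the level per cell and a change in the share of cells with a miRNA cannot be told apart.

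To see how much of the dog-named block these cells express, detection was examined first. Nearly every dog-named miRNA was found in some library, but few of them in every library. At least 1 count was present over the 6 libraries for 133 of the 137 (97.1%), against 296 of the 316 other rows (93.7%). The 4 without any count were miR-8817, miR-8853, miR-8857 and miR-8888. In contrast, 37 of the 137 (27.0%) had a count in all 6 libraries, against 213 of the 316 other rows (67.4%). The median total over the 6 libraries was 8 counts for the dog-named miRNAs and 527.5 counts for the other rows. Other late-named miRNAs, taken by number alone and whatever species they were first named in, did not share these low totals. The 28 other rows numbered above miR-1000, such as miR-1271 or miR-2387, had a median total of 390 counts, and 20 of them (71.4%) were counted in all 6 libraries.

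**Figure D1:**
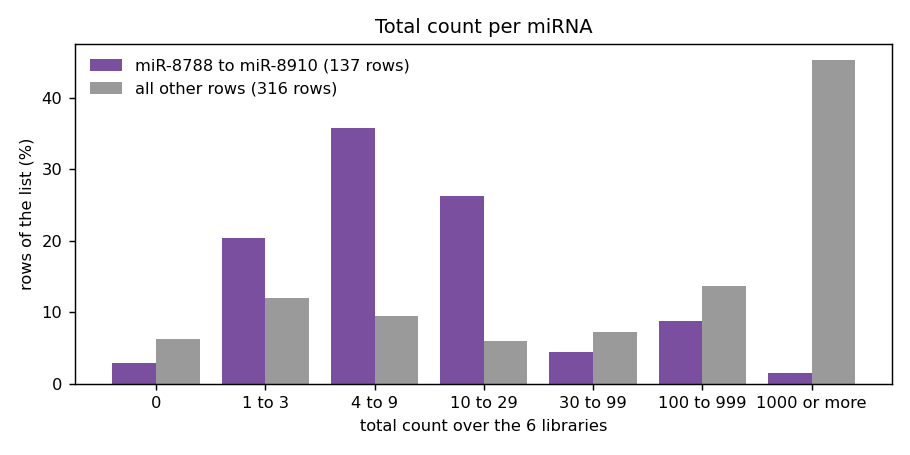
Share of rows (vertical axis, %) in each class of total count over the 6 libraries (horizontal axis), for the 137 dog-named miRNAs and the 316 other rows. Most dog-named miRNAs lay between 1 and 29 counts, whereas 45.3% of the other rows had 1000 counts or more.

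A single library showed between 66 and 96 of the dog-named miRNAs in CHMm and between 76 and 100 in CHMmTAM. The smallest library, CHMm replicate 1, showed the fewest. With each library thinned to the 7512659 counts of the smallest, the expected numbers were 66 to 90.1 in CHMm and 73.5 to 88.7 in CHMmTAM, so that the lines overlapped. Of the 137 miRNAs, 77 had between 1 and 9 counts in all and were not tested for a change. No library held more than 5 counts of any of these 77. Summed over the 77, CHMm showed 27, 61 and 68 counts per library and CHMmTAM 77, 88 and 35. Their summed level was 5.55 ± 2.07 CPM (SD, n = 3) for CHMm against 6.14 ± 1.83 CPM (SD, n = 3) for CHMmTAM, a difference smaller than the spread between libraries. Of the 77, 56 had counts in both lines, 9 in CHMm alone and 12 in CHMmTAM alone. At 9 counts or fewer, absence from a line cannot be told apart from depth.

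All 137 miRNAs together made up a small part of the profile. Their share of all counts was 0.0180%, 0.0202% and 0.0216% in the CHMm libraries and 0.0251%, 0.0264% and 0.0235% in the CHMmTAM libraries. The mean was 0.0200% ± 0.0018 (SD, n = 3) for CHMm against 0.0250% ± 0.0015 (SD, n = 3) for CHMmTAM. The highest CHMm library had a 95% Wilson interval of 0.0207% to 0.0226% and the lowest CHMmTAM library one of 0.0224% to 0.0245%, so that these intervals overlapped although the values did not. A single miRNA, miR-8884, held from 46.6% to 51.7% of the block's counts. The 10 most abundant held from 84.3% to 87.1%.

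miR-8884 was the most abundant of the block and the only one above 100 CPM on average. It was counted 700, 1185 and 947 times in the CHMm libraries, and 1458, 1376 and 937 times in those of CHMmTAM. Its level was 101 ± 5.12 CPM (SD, n = 3) for CHMm against 119 ± 5.39 CPM (SD, n = 3) for CHMmTAM, which placed it at rank 106 and rank 99 of the 453 rows. All 3 CHMmTAM libraries lay above all 3 CHMm libraries, with a gap between 106 and 114 CPM. The log2 fold change, 0.23 with a standard error (SE) of 0.08, passed at FDR = 0.0138, the Benjamini-Hochberg adjusted p of the edgeR quasi-likelihood fit. This small difference depended on the scaling, since it was -0.01 under upper-quartile normalization (FDR = 0.897) and 0.17 with RLE size factors (FDR = 0.0687) and in DESeq2 (FDR = 0.0630). It also missed the FDR threshold without CHMm replicate 1 (FDR = 0.0619) or without CHMmTAM replicate 2 (FDR = 0.0781). According to RefSeq (assembly UU_Cfam_GSD_1.0), MIR8884 lies within the span of SEL1L, which encodes an adaptor of the degradation of misfolded proteins at the endoplasmic reticulum.

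The pair miR-8859b and miR-8859a came next in abundance. Both lie within the span of KCNQ1, a potassium channel gene, and of the lncRNA gene LOC119864243. They lie within 10 kb of each other, the window used here for neighbours. miR-8859b was counted 130, 162 and 130 times in the CHMm libraries, and 303, 247 and 172 times in those of CHMmTAM, or 15.4 ± 2.06 CPM (SD, n = 3) and 22.6 ± 1.07 CPM (SD, n = 3). It rose by 0.57 on the log2 scale (SE 0.13, FDR = 2.42e-05), and its lines did not overlap. miR-8859a was counted 101, 142 and 136 times in the CHMm libraries, and 165, 147 and 105 times in those of CHMmTAM, or 13.7 ± 1.49 CPM and 13.1 ± 0.209 CPM. Its log2 fold change was -0.06 (SE 0.14, FDR = 0.794), with overlapping lines. The log2 ratio of miR-8859b to miR-8859a within a library does not depend on the scaling of that library. It was 0.36, 0.19 and -0.06 in CHMm and 0.87, 0.75 and 0.71 in CHMmTAM, a difference of 0.61 between the means. The lowest CHMmTAM ratio was above the highest CHMm ratio. An exact two-sided permutation test gave p = 0.1, the smallest that 3 against 3 libraries allow, and 0.5 after Benjamini-Hochberg adjustment over the 5 letter pairs compared, which were chosen with their values in view. The names imply related sequences, and reads that fit both miRNAs could be assigned to either, so that the split between the pair is uncertain.

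The remaining miRNAs of the 10 most abundant were led by miR-8827, and the last of them, miR-8789, had 4.35 CPM on average over both lines. miR-8827 was counted 42, 100 and 110 times in the CHMm libraries, and 222, 233 and 104 times in those of CHMmTAM. Its level rose from 8.88 ± 3.28 CPM (SD, n = 3) to 17.2 ± 4.03 CPM (SD, n = 3), a difference of 0.95 on the log2 scale (SE 0.15, FDR = 5.98e-10). The spread within each line was wide, and the highest CHMm library (12.3 CPM) lay just under the lowest CHMmTAM library (13.1 CPM). Without CHMm replicate 3 or CHMmTAM replicate 3, miR-8827 passed both thresholds. Its log2 fold change was lower without CHMm replicate 1 (0.76, FDR = 0.00725) and without CHMmTAM replicate 2 (0.78, FDR = 5.87e-05). With upper-quartile normalization it was 0.70 (FDR = 0.000128), and in DESeq2 0.89 (FDR = 0.000296). MIR8827 lies within the span of CACNG2, which encodes an auxiliary subunit of glutamate receptors and calcium channels.

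miR-8803 was counted 34, 45 and 50 times in the CHMm libraries, and 101, 94 and 71 times in those of CHMmTAM. It rose from 4.70 ± 0.859 CPM to 8.45 ± 0.511 CPM, a difference of 0.85 on the log2 scale (SE 0.19, FDR = 3.87e-05), without overlap. Its gene lies within the span of CRTC1, a co-activator of the transcription factor CREB. miR-8789 was counted 20, 38 and 31 times in the CHMm libraries, and 56, 63 and 52 times in those of CHMmTAM. It rose from 3.16 ± 0.378 CPM to 5.54 ± 1.08 CPM, a difference of 0.76 on the log2 scale (SE 0.23, FDR = 0.00283), and under upper-quartile normalization it was at 0.52 (FDR = 0.0520). Its gene lies in no protein-coding gene of the annotation, but in the lncRNA gene LOC119877840.

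miR-8903 was counted 22, 32 and 45 times in the CHMm libraries, and 103, 83 and 64 times in those of CHMmTAM. It rose from 3.60 ± 1.25 CPM (SD, n = 3) to 7.88 ± 0.305 CPM (SD, n = 3), a difference of 1.14 on the log2 scale (SE 0.21, FDR = 2.11e-07). The CHMmTAM libraries were close together, between 7.52 and 8.06 CPM, and all lay above the highest CHMm library at 5.03 CPM. The log2 fold change was under 1 without CHMm replicate 2 (0.95) and with upper-quartile normalization (0.90), while the FDR stayed at 0.00306 or lower in both. MIR8903 lies within the span of DROSHA, the gene of the RNase that cuts miRNA hairpins from their primary transcripts. The table gives no strand, and the level of the DROSHA transcript was not analysed here.

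Besides miR-8859a, 3 of the 10 most abundant missed the FDR threshold. miR-8890, within the span of the transcription factor gene TEAD2, was counted 64, 130 and 81 times in the CHMm libraries, and 110, 84 and 48 times in those of CHMmTAM. Its log2 fold change was -0.37 (SE 0.17, FDR = 0.0571). All CHMmTAM values lay below all CHMm values, though the nearest were 8.61 and 8.75 CPM. miR-8890 passed the FDR threshold at -0.43 with RLE size factors (FDR = 0.0204), at -0.62 with upper-quartile normalization (FDR = 0.00113) and at -0.48 without CHMmTAM replicate 1 (FDR = 0.0330). miR-8865 had 4.85 ± 1.59 CPM in CHMm and 5.90 ± 1.20 CPM in CHMmTAM, and miR-8829, within the span of TCF20, had 4.31 ± 0.412 CPM and 4.61 ± 1.46 CPM. For both the lines overlapped.

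**Figure D2:**
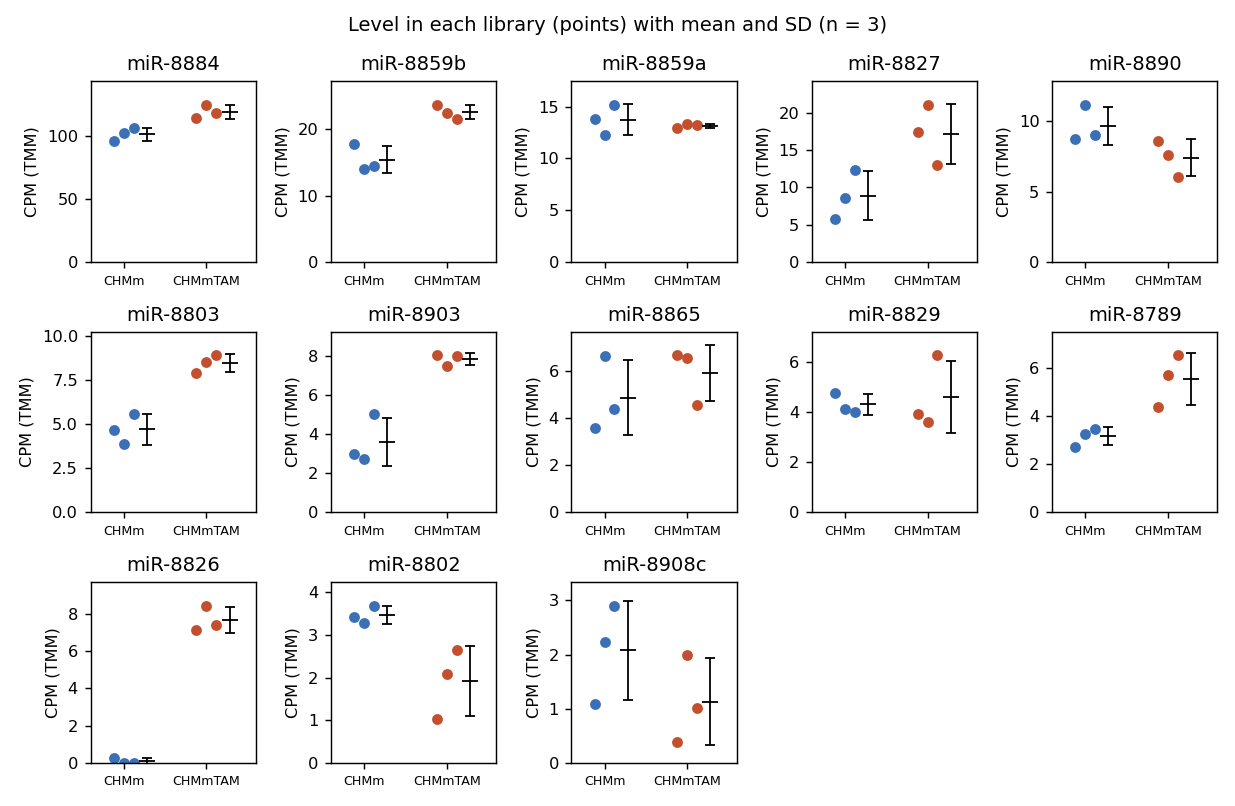
Level of 13 dog-named miRNAs (vertical axes, CPM with TMM factors, each from 0) in the 3 CHMm and the 3 CHMmTAM libraries (points), with the mean and SD of each line beside them. miR-8826 was near 0 in CHMm and above 7 CPM in every CHMmTAM library, whereas miR-8859a, miR-8865, miR-8829 and miR-8908c overlapped between the lines.

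miR-8826 differed most between the lines. It was counted 2, 0 and 0 times in the CHMm libraries, and 91, 93 and 59 times in those of CHMmTAM, or 0.0912 ± 0.158 CPM (SD, n = 3) and 7.66 ± 0.687 CPM (SD, n = 3). The CHMm libraries were all below the limit of 3 counts, and the CHMmTAM libraries lay between 7.12 and 8.43 CPM. Pooled over the libraries of a line, 243 counts in CHMmTAM against 2 in CHMm gave a ratio of shares of 107, with an exact 95% counting interval of 29.2 to 884. The fitted log2 fold change was 6.51 (SE 0.47, FDR = 1.73e-39), and it lay between 5.83 and 9.33 over all settings tried. This SE, taken from the F statistic, understates the uncertainty with 2 counts in CHMm, for which the counting interval above is wider. The FDR also depended on the fit, with 1.41e-09 in DESeq2 and 7.99e-08 in edgeR without CHMm replicate 1. miR-8826 passed both thresholds in each of these settings and was the only dog-named miRNA past a test against a 2-fold change (FDR = 9.48e-25 from edgeR's glmTreat). Its rank moved from 324 to 169 of the 453 rows. MIR8826 lies within the span of SLC9A2, which encodes a sodium-proton exchanger of epithelial cells, and no other miRNA row lies within 10 kb of it.

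In CHMmTAM, miR-8826 reached the level of several miRNAs of the block that were present in both lines. Its 7.66 CPM stood beside the 7.88 CPM of miR-8903, the 8.45 CPM of miR-8803 and the 7.42 CPM of miR-8890 in the same line. These values are shares of reads and were not corrected for differences in how well each sequence enters a library.

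On the lower side, 2 miRNAs passed the FDR threshold and neither held in all fits. miR-8802 was counted 25, 38 and 33 times in the CHMm libraries, and 13, 23 and 21 times in those of CHMmTAM. It fell from 3.46 ± 0.212 CPM (SD, n = 3) to 1.91 ± 0.824 CPM (SD, n = 3), a difference of -0.92 on the log2 scale (SE 0.30, FDR = 0.00570), and its lines did not overlap. The lowest value was that of CHMmTAM replicate 1 at 1.02 CPM, and without this library the log2 fold change was -0.54 (FDR = 0.180). In contrast, miR-8802 passed both thresholds at -1.17 with upper-quartile normalization (FDR = 0.000680) and at -1.03 in limma-voom (FDR = 0.00396). It also passed both without CHMmTAM replicate 2 (-1.04) or replicate 3 (-1.16). Its gene lies within the span of ATCAY, a gene of neurons. miR-8908c was counted 8, 26 and 26 times in the CHMm libraries, and 5, 22 and 8 times in those of CHMmTAM, with overlapping lines. Its log2 fold change was -0.94 (SE 0.38, FDR = 0.0338), and it ranged from -1.74 without CHMmTAM replicate 2 to -0.42 without CHMmTAM replicate 1. It passed the FDR threshold in 1 of the 6 fits that left out a library, and it lost it without CHMm replicate 1, 2 or 3 and without CHMmTAM replicate 1 or 3 (FDR from 0.0522 to 0.448). With all libraries it also missed the threshold with library totals only (FDR = 0.0826), in DESeq2 (FDR = 0.135) and with no filter (FDR = 0.0514). In contrast, miR-8908c passed both thresholds at -1.004 with RLE size factors (FDR = 0.0223) and at -1.19 with upper-quartile normalization (FDR = 0.0115). It also passed both at -1.15 in limma-voom (FDR = 0.0185) and without CHMmTAM replicate 2.

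To place these changes in the whole table, all rows with a total of at least 10 counts were tested, which left 56 of the 137 dog-named miRNAs and 228 of the 316 other rows. A log2 fold change above 1 or below -1 at FDR below 0.05 was reached by 2 of the 56, miR-8826 and miR-8903, both higher in CHMmTAM. Over all 284 tested rows 11.3% passed both thresholds, 5.99% higher and 5.28% lower in CHMmTAM. Under upper-quartile normalization 4 of the 56 passed, 1 higher and 3 lower, beside 34 of all 284 rows. With a library left out, the filter was applied anew and fewer rows were tested. Without CHMm replicate 2 only miR-8826 of 46 dog-named miRNAs passed both thresholds, beside 32 of all 272 rows. Without CHMmTAM replicate 2 the number was 4 of 46, beside 32 of 271 rows, and without CHMmTAM replicate 3 it was 4 of 51, beside 34 of 278. At FDR below 0.05 alone, 9 of the 56 passed, 7 higher and 2 lower, against 44.0% of all 284 rows, 25.4% higher and 18.7% lower. This split was 5 higher and 4 lower under upper-quartile normalization, and 6 higher and 4 lower with RLE size factors. With upper-quartile normalization the median change over all tested rows went from 0.06 to -0.18 and that of the tested dog-named miRNAs from 0.20 to -0.05. The values of all 3 CHMmTAM libraries lay beyond all 3 of CHMm for 12 of the 56 (21.4%), in 10 higher (17.9%) and in 2 lower. Over all 284 rows this held for 51.8%, in 82 higher (28.9%) and in 65 lower.

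The calls were then set out by total count. The median standard error of a log2 fold change was 0.79 for the tested dog-named miRNAs and 0.09 for the other tested rows. Among rows with a total of at least 100 counts, 8 of 14 dog-named miRNAs (57.1%) and 111 of 186 other rows (59.7%) passed at FDR below 0.05. In the same class 2 of 14 (14.3%) and 25 of 186 (13.4%) passed both thresholds. Among rows with 10 to 99 counts, 1 of 42 dog-named miRNAs (2.38%) and 5 of 42 other rows (11.9%) passed at FDR below 0.05. With TMM factors in edgeR, 0 of 42 and 5 of 42 passed both thresholds. Of these 42 dog-named miRNAs 2 had an unadjusted p below 0.05, and limma-voom placed 1, miR-8908c, past both thresholds. edgeR placed miR-8908c and miR-8804 past both thresholds with RLE size factors and with upper-quartile normalization. Within that class 36 of the 42 dog-named miRNAs and 19 of the 42 other rows had under 30 counts, and the median standard errors were 0.89 and 0.65. Of the 36 dog-named miRNAs with 10 to 29 counts, 0 passed edgeR's test at FDR below 0.05, and 1, miR-8804, had an unadjusted p below 0.05. limma-voom called 0 of these 36. DESeq2 gave no adjusted p for 30 of the 56 tested dog-named miRNAs, so that its calls say little about this class. With RLE size factors and with upper-quartile normalization edgeR called 1 of the 36, miR-8804 (FDR = 0.0461 and 0.0362).

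**Figure D3:**
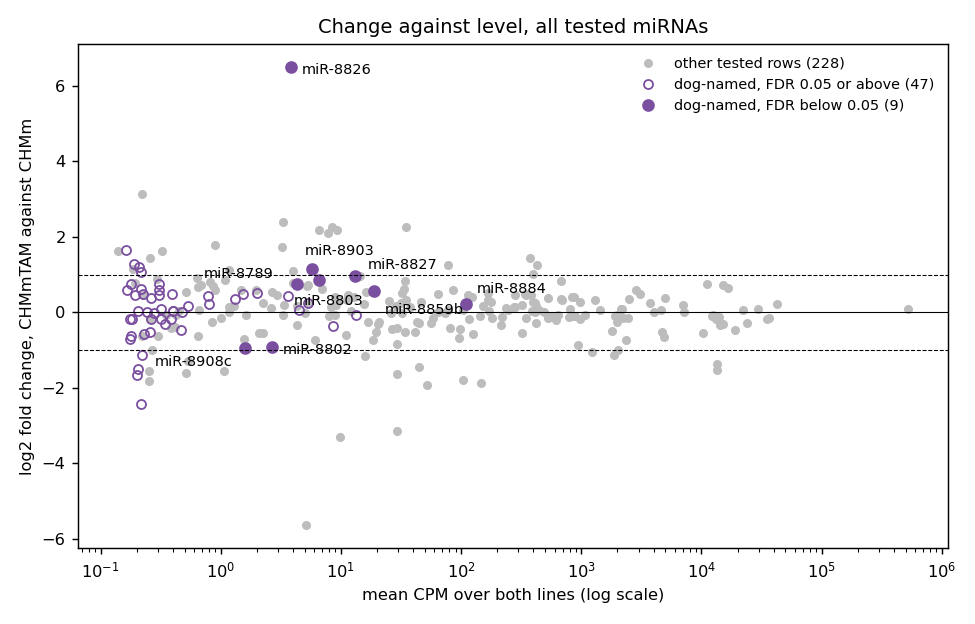
Log2 fold change of CHMmTAM against CHMm (vertical axis) against the mean level over both lines (horizontal axis, CPM, log scale) for 284 tested miRNAs, with dashed lines at 1 and -1. The dog-named miRNAs, in purple, lie mostly at the left of the plot, and miR-8826 at 6.51 has the largest change of all rows.

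Some of the rarest tested miRNAs showed large fitted changes without passing the test. Besides miR-8826, 18 of the 56 had 3 counts or fewer in every library of one line. Their log2 fold changes ran from -2.43 for miR-8804 to 1.64 for miR-8809, with small ones between, such as 0.04 for miR-8904b and -0.17 for miR-8861. Their FDR ran from 0.0563 to 0.986. miR-8804, within the span of TNFAIP8L1, was counted 0, 4 and 7 times in the CHMm libraries, and 1, 1 and 0 times in those of CHMmTAM. It passed the FDR threshold under RLE size factors, upper-quartile normalization and without CHMm replicate 1, at log2 fold changes of -2.48, -2.65 and -2.88. miR-8809 was counted 1, 0 and 1 times in the CHMm libraries, and 6, 0 and 2 times in those of CHMmTAM, with a standard error of 1.19. miR-8868, within the span of VPS26B, was counted 1, 1 and 1 times in the CHMm libraries, and 4, 4 and 1 times in those of CHMmTAM. The values of both lines overlapped for miR-8809 and miR-8868.

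Near the limit of 10 counts, miR-8809 and miR-8861 were just inside with 10 counts each, and miR-8799d and miR-8800 just outside with 9 counts each. Also outside, and chosen after their values were seen, were miR-8836 and miR-8871. miR-8836 was counted 0, 0 and 0 times in the CHMm libraries, and 5, 2 and 2 times in those of CHMmTAM, and miR-8871 was counted 0, 0 and 0 times in the CHMm libraries, and 4, 3 and 1 times in those of CHMmTAM. Both passed both thresholds when no filter was used. No fold is given for them, since most of their libraries were at or near the limit of 3 counts.

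**Figure D4:**
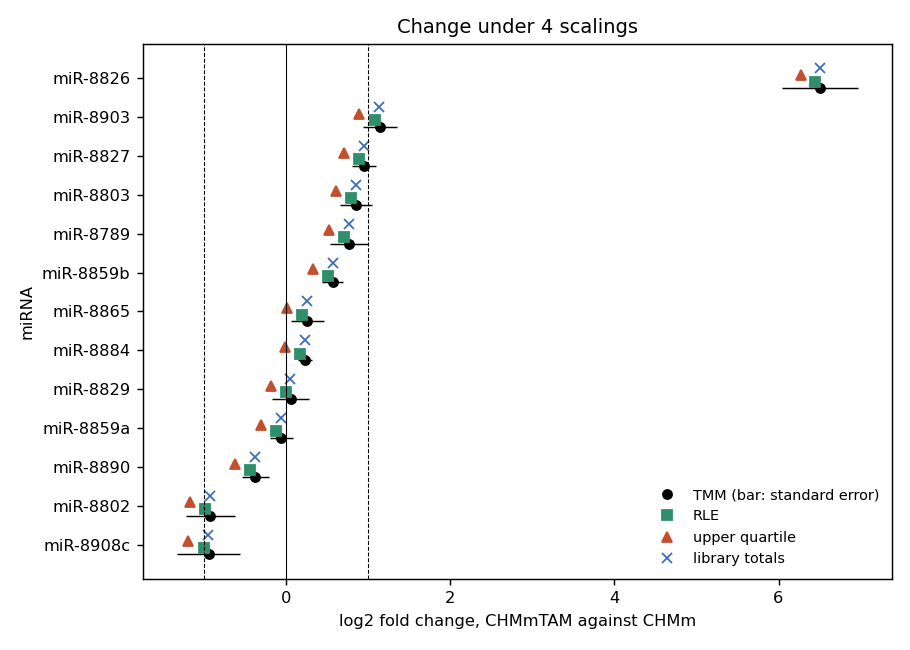
Log2 fold change of CHMmTAM against CHMm (horizontal axis) for the 13 dog-named miRNAs that passed the FDR threshold or were among the 10 most abundant (vertical axis), under 4 scalings of the libraries, with the standard error for TMM. Upper-quartile normalization moved every value to the left, took miR-8903 below 1 and miR-8884 to -0.01.

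The letter families differed in how evenly their members were counted. The 7 rows of miR-8799 had totals from 4 to 32 counts, with miR-8799g the highest at 4, 4 and 6 counts in CHMm and 8, 7 and 3 in CHMmTAM. Among the 7 rows of miR-8908, miR-8908c had 95 counts and the other 6 from 1 to 9. The genes of these rows other than miR-8908f lie within 10 kb of another of them, and RefSeq lists 4 genes for miR-8908a and 3 for miR-8908d. miR-8834a had 124 counts and miR-8834b 29. The log2 ratio of miR-8834a to miR-8834b was 1.71 ± 0.822 (SD, n = 3) for CHMm against 2.44 ± 0.489 in CHMmTAM (exact two-sided permutation p = 0.3, adjusted 0.5). In the pairs miR-8791, miR-8873 and miR-8904 the ratios of the lines overlapped as well. Without the read sequences, counts cannot be assigned with certainty to single members of such a family.

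The position of the genes was then compared, by name, with RefSeq genes (assembly UU_Cfam_GSD_1.0). A gene entry was found for 130 of the 137 dog-named miRNAs (94.9%) and for 315 of the 316 other rows, and 125 of the former were placed on a chromosome. Of these 125, 48 (38.4%) lay within the span of a protein-coding gene, against 150 of the 315 other rows (47.6%). Among the tested miRNAs the shares were 24 of 51 (47.1%) and 115 of 228 (50.4%). Another miRNA of the table lay within 10 kb for 10 of the 125 (8%), against 149 of the 315 other rows (47.3%). These 10 were the pair of miR-8859, the pair of miR-8794 and miR-8907, and 6 rows of miR-8908. Most dog-named miRNAs thus stood alone in the annotation, whereas the other rows often lay in clusters. These shares are descriptions of the annotation and were not tested.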

How the data were processed

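The values deposited by the authors are raw read counts for each canine miRNA and library, and they had not been normalized. The submitters' processing notes, shared with RNA-seq libraries not analysed here, name BWA, HISAT2 2.0.4 and CanFam3.1 without stating their roles. The miRNA database, the trimming and how multiply matching reads were handled are not given in the sources used here and could move counts between similar miRNAs.

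Libraries were assigned by their titles. Rows with at least 10 counts in total were tested in edgeR 4.0.16 (R 4.3.3) with TMM factors and the quasi-likelihood test, CHMmTAM against CHMm, without a block. P-values were adjusted over all 284 tested rows (FDR). CPM values use the TMM factors, shares use all counts. The thresholds are those of the study. The fit was tested on simulated counts with large changes and a single fixed spread. Recovery was checked only for rows with a total of at least 100 counts. That check does not cover recovery of smaller changes or of rarer rows. Each standard error (SE) was obtained by dividing the coefficient by the root of its F statistic, and ratios of 2 miRNAs used a pseudocount of 0.5. Intervals cover counting error only.

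The miRNAs and lists were chosen with earlier results of these data known. Named are those past FDR, the 10 most abundant, those with at most 3 counts in every library of one line, and those at the filter, the middle group by examples. Mature sequences were not used, so that seeds and similarity were not compared. RefSeq names came from another assembly than CanFam3.1, and no coordinates are given.

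Alternatives were RLE, upper-quartile or no normalization factors, DESeq2 1.42.0, limma-voom (limma 3.58.1), no filter, the default filter of edgeR, a replicate block, each library left out, FDR alone and a test against a 2-fold change. Thinning to the smallest library was added after seeing the data. Tables and figures used Python 3.11.15 and matplotlib 3.10.9.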

Additional observations from a re-analysis of the deposited data

How the results depend on the processing

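The 2 dog-named miRNAs past both thresholds became 4 under RLE size factors, upper-quartile normalization, limma-voom and no filter, of which 2, 1, 2 and 4 were higher in CHMmTAM, 9 at FDR alone and 1 when tested against a 2-fold change. Over all tested rows, 32 of 284 passed both thresholds in the main fit. The number was 34 with RLE and with upper-quartile scaling, 33 in limma-voom and 33 of 429 rows with no filter. The 2 lower at FDR alone became 4 under RLE and upper-quartile scaling and 1 with library totals only, the DESeq2 Wald test (which gave no adjusted p for 30 of the 56) or no filter. With a library left out the filter was applied anew, which left 44 to 51 dog-named miRNAs among 267 to 278 tested rows. Of all these rows 30 to 34 passed both thresholds. Leaving out each library gave 1 to 4 past both thresholds, 1 to 3 of them higher, 6 to 7 higher and 1 to 2 lower at FDR alone, and mean shares of 0.0191% to 0.0209% in CHMm and 0.0243% to 0.0258% in CHMmTAM. Without miR-21 these shares were 0.0407% and 0.0544%. With all libraries, the 12 without overlap became 8 under upper-quartile normalization, 10 with library totals only or the default filter of edgeR, and 16 with no filter. The number was 14 to 18 with a library left out, but lines separate more easily with fewer libraries. Detection fell from 133 to 56 miRNAs with 10 counts in all and to 37 with a count in every library. miR-8884 reversed to a log2 fold change of -0.013 under upper-quartile normalization. The cause of these moves was not tested. For single named miRNAs, 331 values kept direction and side of the FDR threshold or stayed short of it, 15 lost the call, 7 gained it and 1 reversed. With the replicate number as a block, 2 passed both thresholds and 9 passed FDR, with miR-8890 gained and miR-8908c lost. Same-numbered libraries had correlations of 0.06, 0.46 and -0.31 over 117 rows, and 2 of 6 libraries correlated best with their own number, so the numbers do not pair the libraries.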

Other observations

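Among the dog-named miRNAs that were too rare to test, RefSeq places several inside the same gene. miR-8850 and miR-8851 lie within DPP6, which encodes a subunit of neuronal potassium channels, with 8 and 6 counts over the 6 libraries. miR-8852 and miR-8862 lie within ADCY1, an adenylate cyclase of neurons, with 5 and 6 counts. No library held more than 5 counts of any of them, and none was tested.

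2 tested miRNAs of the block lie within genes whose products act on small RNAs or their precursors, an overlap noticed only after the list of genes was read. They are miR-8903 within DROSHA and miR-8848 within ERI1, a 3′ to 5′ exonuclease. miR-8848 was counted 0, 8 and 4 times in the CHMm libraries, and 7, 4 and 3 times in those of CHMmTAM, which gave 0.04 on the log2 scale (SE 0.70, FDR = 0.983 by the edgeR quasi-likelihood fit), and the lines overlapped.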
